A study of Homo sapiens with 14 samples.

Results

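The replication-dependent histone genes are described here in undifferentiated human pluripotent stem cells and in day 11 cultures derived from them. A gene was taken as a member when its symbol in the count tables starts with HIST1H, HIST2H, HIST3H or HIST4H, which gave 89 of 57445 gene entries: 8 of type H1, 22 of H2A, 26 of H2B, 17 of H3 and 16 of H4. The rule uses names only, and pseudogenes that carry such names are included, with 71 of the 89 annotated as protein coding in GENCODE 29. The cells were H9 (WA-09), an established embryonic stem cell line, and all groups are therefore 1 line. The hPSC group was undifferentiated cells at day 0. The 4 day 11 groups were cells on the way to midbrain dopamine neurons, labelled neural progenitors, and differed in how much CHIR99021 (CHIR), a GSK3 inhibitor that switches on WNT signalling, they received from day 4: 7.5, 5, 3 or 0.7 µM. Every day 11 culture shared SHH C25II, LDN and SB431542, withdrawn on day 7, a Rock inhibitor at plating and 0.7 µM CHIR up to day 3. From day 10 they also shared a medium with BDNF, ascorbic acid, GDNF, TGFβ3, dibutyryl cAMP and 3 µM CHIR. Each group had 2 libraries. The records give both day 9 and day 10 as the end of the 4 CHIR concentrations. Whether the 2 libraries of a group come from separate cultures is not stated, and every p-value here rests on the spread between libraries, which may be technical.

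These genes supply the histones that package newly copied DNA. Many copies of each type lie in clusters, are switched on together as a cell enters S phase under the coactivator NPAT, and are silenced when DNA synthesis ends. Their mRNAs usually carry no poly(A) tail. They end instead just after a short hairpin, the stem-loop, which is bound by SLBP and directs the cut that makes the end of the mRNA. Some members are also known to give longer, polyadenylated transcripts, among them HIST1H1C, HIST1H2AC, HIST1H2BC, HIST1H2BD, HIST1H2BK and HIST2H2BE, and such forms persist in cells that have stopped dividing. How the RNA was selected for sequencing is not given in the sources used here. A poly(A) selection would pass over most transcripts of this family, so the counts below are counts of the transcripts these libraries retained, and they are not a measure of total histone mRNA.

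The stem-loop is typical of this family, and it is shown for some of the named members whose models hold it. Of the members that passed an edgeR comparison of doses below, only HIST2H2BE is among them. The letters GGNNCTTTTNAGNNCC, on the strand of the transcript, were found in GENCODE 29 transcripts of 34 of the 89 members, against 80 of all 58721 genes (0.136%). Each line gives 5 bases, the 16-base hairpin in capitals, and the next 5 bases, written as DNA, 5′ to 3′.
HIST2H2BE: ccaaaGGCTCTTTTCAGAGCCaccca
HIST1H2BH: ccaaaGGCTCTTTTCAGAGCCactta
HIST1H2BD: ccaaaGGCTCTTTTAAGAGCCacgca
HIST1H2BC: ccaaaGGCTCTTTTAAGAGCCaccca
HIST1H2AC: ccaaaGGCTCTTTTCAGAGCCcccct
HIST1H2AG: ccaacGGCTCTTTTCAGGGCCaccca
HIST1H4E: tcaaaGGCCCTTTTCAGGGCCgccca
HIST1H4I: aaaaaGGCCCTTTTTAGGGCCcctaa
The 34 members held 5 different hairpins, and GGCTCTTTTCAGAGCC alone was found in 18. The GENCODE 29 models of the H1 genes and of HIST1H2BK hold no such letters, which says nothing of the RNA made. Among the 71 protein-coding members, 22 have a model that runs on for at least 100 bases past the hairpin, as the models of HIST2H2BE (1729 bases more), HIST1H2BH (1640 bases more) and HIST1H2AC (1128 bases more) do. The median of their mean level was 0.355 CPM (a gene's counts scaled to 1000000 gene counts a library), and 17 of the 22 reached 0.1 CPM. For the 9 whose models with the hairpin all end within 100 bases of it, this was 0.0623 CPM, with 3 of 9 at 0.1 CPM. The highest of these, HIST1H2BD with 440 counts, is classed by a model of 496 bases and has another of 789. For the 40 with no hairpin in the model it was 0.0655 CPM, with 14 of 40 at 0.1 CPM. That class nevertheless held the most counts, 9515 against 6298 in the first class and 705 in the second, and the member of highest mean level, HIST1H2BK at 16.8 CPM. Longer models collect more reads, and these values are given as a description.

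The hPSC and day 11 libraries held 20524827 to 44758969 gene counts, and 849 to 2682 of these fell on the 89 members. A count of 3 in a library corresponds to 0.067 to 0.146 CPM, which is the limit that a count of 0 allows, for counting error only. Reads that fit more than one place were not counted to genes. They made up 25.0% to 28.3% of all counts in the replicate 1 libraries of 5, 3 and 0.7 µM and 15.1% to 17.8% in the other 7 libraries. Near-identical copies lose their reads in this way, and HIST2H2AA3 with HIST2H2AA4, HIST2H3A with HIST2H3C, and HIST2H4A with HIST2H4B, all at 0 in every library, are therefore uncertain. The pluripotency gene POU5F1 was at 463 and 522 CPM in hPSC and at 0.374 to 1.31 CPM at day 11. The floor plate gene LMX1A was at 0.031 and 0.200 CPM in hPSC and at 28.2 to 119 CPM at day 11. LIN28A was high in both, at 1107 to 1847 CPM. Of 5 mesoderm or caudal genes listed, T reached 11.5 and 21.6 CPM and CDX2 11.8 and 10.6 CPM at 7.5 µM. The others stayed low there: TBX6 at 0.297 and 0.436 CPM, MIXL1 at 0.208 and 1.06 CPM, and MSGN1 at 0.119 and 0.031 CPM.

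Histone counts were highest at the intermediate CHIR concentrations and low in undifferentiated cells. The members summed to 29.02 and 33.9 CPM in hPSC replicates 1 and 2, to 49.9 and 44.9 CPM at 0.7 µM, to 96.8 and 75.8 CPM at 3 µM, to 79.2 and 78.3 CPM at 5 µM, and to 38.5 and 43.5 CPM at 7.5 µM. Within each replicate number, 3 µM and 5 µM lay 1.59 to 1.94 times above 0.7 µM, and 7.5 µM lay at 0.485 and 0.556 times the 5 µM level. The 3 and 5 µM libraries thus all lay above the other 6 libraries. These sums are described without a test, since no p is given for a sum over the members. The 5 members of highest mean CPM over the 10 libraries were HIST1H2BK, HIST2H2BE, HIST1H1C, HIST1H1E and HIST1H2BH. These 5 held 44.3% and 48.6% of the sum in hPSC and 60.3% to 83.9% at day 11. They leave out HIST1H2AC, the highest member in both hPSC libraries, with 22.3% and 21.2% of the sum there. No count was found for 25 members in any library. The 6 members listed above as able to give polyadenylated transcripts held 63.1% and 65.1% of the sum in hPSC. At day 11 they held 53.0% to 61.2% in the replicate 1 libraries and 72.6% to 78.7% in the replicate 2 libraries.

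**Figure D1:**
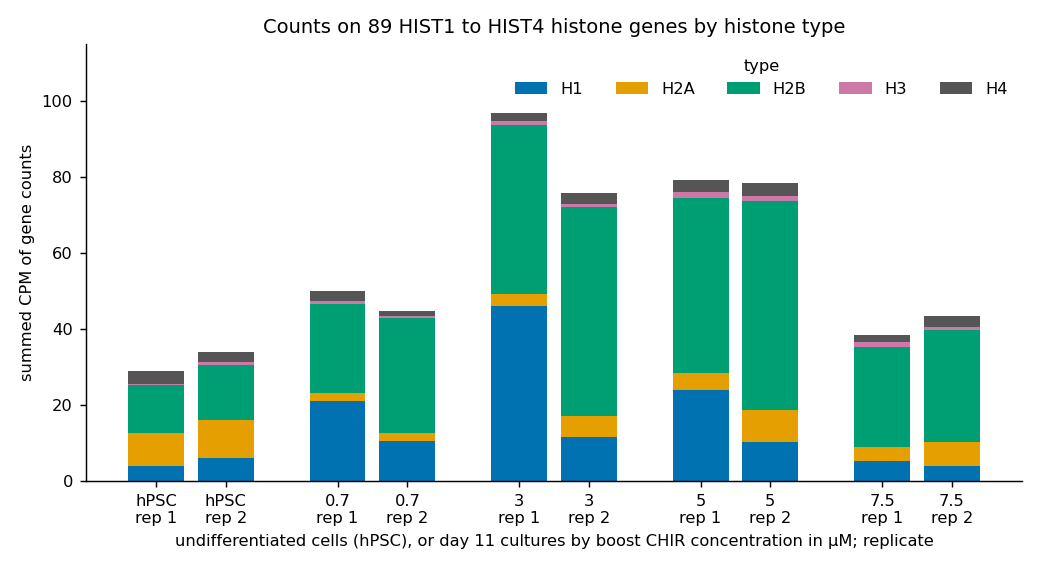
Summed CPM of the 89 histone genes in each of the 10 libraries, 1 bar a library, divided by histone type; the horizontal axis gives hPSC or the CHIR concentration in µM and the replicate. The 4 bars at 3 and 5 µM lie between 75.8 and 96.8 CPM, above the other 6, and H2B takes the largest part of every bar except 3 µM replicate 1.

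H1, the linker histone that binds where DNA enters and leaves the nucleosome, was lowest at 7.5 µM among the day 11 cultures. H1 genes summed to 21.2 and 10.6 CPM at 0.7 µM, 46.2 and 11.5 CPM at 3 µM, 23.9 and 10.3 CPM at 5 µM, and 5.47 and 4.02 CPM at 7.5 µM, against 3.99 and 6.19 CPM in hPSC. Replicate 1 was above replicate 2 at each concentration, and both 7.5 µM libraries lay below all other day 11 libraries. At 7.5 µM the H1 sum was 0.258 and 0.378 times that at 0.7 µM in replicates 1 and 2. In replicate 1 the share of reads that fit more than one place was 25.0% to 28.3% at 0.7, 3 and 5 µM. It was 17.4% at 7.5 µM, and its part in these differences was not tested.

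HIST1H1E, which encodes the linker histone H1.4, fell at 7.5 µM against both 0.7 and 5 µM. Its level was 7.84 and 3.42 CPM at 0.7 µM, 22.1 and 4.86 CPM at 3 µM, 9.15 and 3.39 CPM at 5 µM, and 1.81 and 0.499 CPM at 7.5 µM. The 7.5 µM libraries did not overlap any other day 11 library. The log2 fold change was −2.63 ± 0.41 (SE, n = 2 a group; edgeR adjusted p = 0.00438) against 0.7 µM and −2.79 ± 0.41 (adjusted p = 0.0119) against 5 µM. Its counts at 7.5 µM were 61 and 16, so this rests on few reads. Without either 5 µM library the adjusted p against 5 µM was 0.0587 and 0.0896.

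HIST1H1D, encoding H1.3, fell at 7.5 µM against 0.7 µM. It was at 2.83 and 2.03 CPM at 0.7 µM, 5.18 and 0.810 CPM at 3 µM, 1.97 and 0.847 CPM at 5 µM, and 0.119 and 0.343 CPM (4 and 11 counts) at 7.5 µM. The 2 replicates went apart at 3 µM, where replicate 1 was above its 0.7 µM level and replicate 2 below it. Its log2 fold change from 0.7 to 7.5 µM was −3.47 ± 0.84 (SE; edgeR adjusted p = 0.0277), and from 5 to 7.5 µM it was −2.64 ± 0.86 (adjusted p = 0.0835). With the first or the second 0.7 µM replicate left out the change from 0.7 µM was −3.97 or −2.90 (adjusted p = 0.0618 or 0.150), and with the first 7.5 µM replicate left out it was −2.31 (adjusted p = 0.0932), all above the threshold of 0.05.

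HIST1H1C, encoding H1.2, was at 9.99 and 4.80 CPM at 0.7 µM, 18.2 and 5.67 CPM at 3 µM, 11.8 and 5.75 CPM at 5 µM, and 2.97 and 2.93 CPM at 7.5 µM. The 7.5 µM libraries were again the lowest of day 11. The difference did not pass the test against 0.7 µM (log2 fold change −1.33 ± 0.43, SE; edgeR adjusted p = 0.0773) or against 5 µM (−1.66 ± 0.44; adjusted p = 0.0506). DESeq2 called both, with adjusted p = 0.0137 and 0.00200. Without 7.5 µM replicate 2 edgeR called both too, at −2.18 (adjusted p = 0.00415) and −2.47 (adjusted p = 0.00261), while without 7.5 µM replicate 1 they were −0.76 and −1.05 and passed neither test. HIST1H1B, encoding H1.5, held 102 counts over the 10 libraries and passed in no comparison of doses. Of the 4 H1 genes tested, all 4 had a negative log2 fold change at 7.5 µM against 0.7 µM and against 5 µM in this TMM-scaled fit.

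H2B held the largest share of counts in 9 of 10 libraries. Over the 10 libraries HIST1H2BK had 4919 counts and HIST2H2BE 2794, and HIST2H2BE was the higher of the pair in CPM in both hPSC libraries and in 0.7 µM replicate 2. H2B genes summed to 23.3 and 30.3 CPM at 0.7 µM, 44.3 and 54.9 CPM at 3 µM, 45.9 and 54.9 CPM at 5 µM, and 26.3 and 29.5 CPM at 7.5 µM, against 12.5 and 14.4 CPM in hPSC. At 0.7, 3 and 5 µM the H2B sums of the 2 replicates lay closer together than the H1 sums did.

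HIST1H2BK rose at 5 µM against 0.7 µM and fell from 5 to 7.5 µM. It was at 10.4 and 10.6 CPM at 0.7 µM, 24.5 and 27.9 CPM at 3 µM, 27.6 and 30.8 CPM at 5 µM, and 13.01 and 16.4 CPM at 7.5 µM, against 3.53 and 3.23 CPM in hPSC. No 2 of these groups overlapped, except that 3 and 5 µM did. The log2 fold change was 1.55 ± 0.26 (SE, n = 2 a group; edgeR adjusted p = 0.0223) from 0.7 to 5 µM and −1.24 ± 0.26 (adjusted p = 0.0293) from 5 to 7.5 µM. From 0.7 to 3 µM it was 1.51 ± 0.26, with an adjusted p = 0.129. Replicate 2 differed from replicate 1 by a log2 fold change of −0.03 ± 0.18 (adjusted p = 0.897). The call from 0.7 to 5 µM was lost when any of its 4 libraries was left out (adjusted p from 0.0868 to 0.311), and the call from 5 to 7.5 µM when either 5 µM library was (adjusted p = 0.269 and 0.172). Scaled to total counts, the change from 5 to 7.5 µM was −0.99 (adjusted p = 0.0567).

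HIST2H2BE, an H2B gene known for a long polyadenylated transcript in non-dividing cells, fell at 7.5 µM. Its level was 4.63 and 15.9 CPM at 0.7 µM, 9.72 and 20.0 CPM at 3 µM, 6.02 and 15.1 CPM at 5 µM, 3.33 and 4.55 CPM at 7.5 µM, and 3.99 and 5.27 CPM in hPSC. Replicate 2 was above replicate 1 in every group. Against 0.7 µM the log2 fold change at 7.5 µM was −1.37 ± 0.37 (SE; edgeR adjusted p = 0.0418), and against 5 µM it was −1.52 ± 0.37 (adjusted p = 0.0415). Fitted on the libraries of 0.7 and 7.5 µM alone, the former was −1.36 (adjusted p = 0.174). Scaled to total counts, these were −1.16 (adjusted p = 0.0769) and −1.27 (adjusted p = 0.0639). Without 0.7 µM replicate 2 the former was −0.77 (adjusted p = 0.254), and without 7.5 µM replicate 2 it was −1.06 (adjusted p = 0.0690). Without either 5 µM library the latter had an adjusted p = 0.240 and 0.198.

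HIST1H2BH stood out for its replicates rather than for the dose. It was at 5.21, 6.75, 6.84 and 5.02 CPM in the replicate 1 libraries, in order of dose. In the replicate 2 libraries it was at 0.916, 1.16, 1.78 and 1.87 CPM, and in hPSC at 1.67 and 2.39 CPM. The replicate 1 and replicate 2 libraries of day 11 did not overlap. HIST1H2BD was at 0.780 and 0.916 CPM at 0.7 µM, 1.13 and 1.83 CPM at 3 µM, 1.78 and 2.57 CPM at 5 µM, and 1.37 and 2.77 CPM at 7.5 µM. It lay above its 0.7 µM level in both replicates at each higher concentration and passed the test in none (edgeR adjusted p = 0.667, 0.196 and 0.130). HIST1H2BN was at 0.563 to 1.93 CPM at day 11, and its gene model overlaps HIST1H2AK and HIST1H2AL, so their reads may not be told apart. HIST1H2BC was at 0.089 to 0.613 CPM at day 11, at most 21 counts a library.

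**Figure D2:**
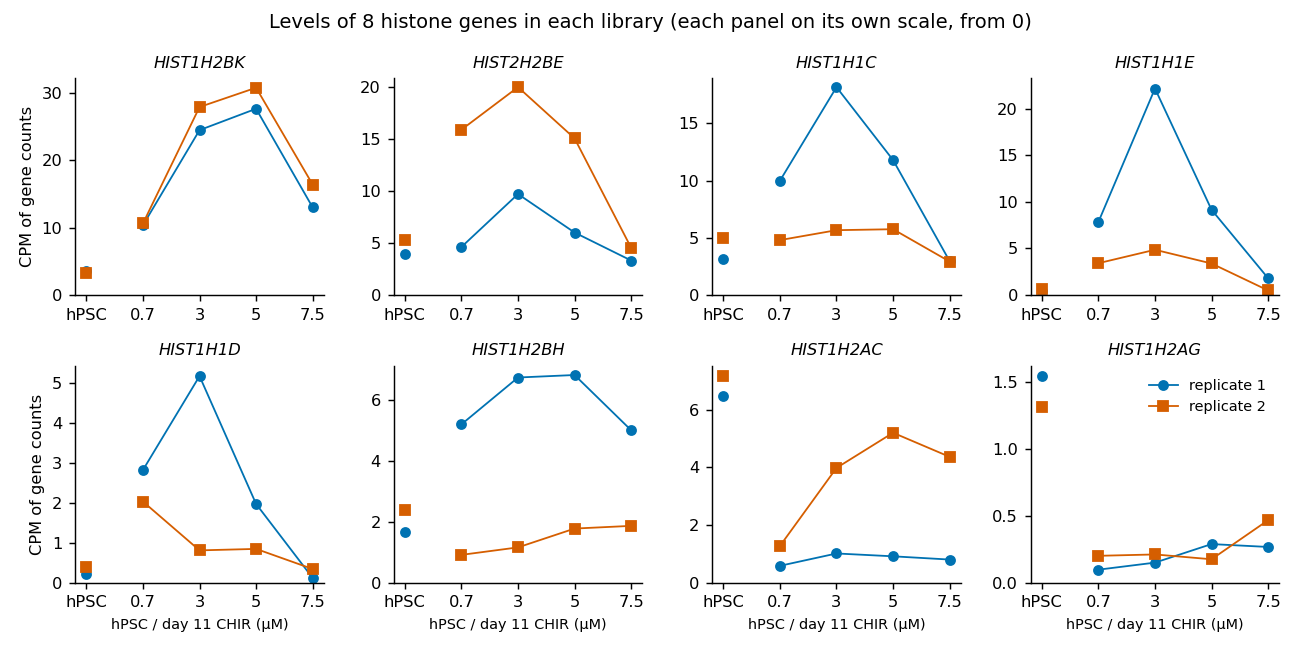
CPM of 8 histone genes in hPSC and in the day 11 cultures by CHIR concentration (µM, evenly spaced), with circles for replicate 1 and squares for replicate 2; lines join the day 11 libraries of 1 replicate number. HIST1H2BK has similar values in both replicates, and at day 11 HIST1H1E and HIST1H2BH lie higher in replicate 1 and HIST2H2BE and HIST1H2AC higher in replicate 2.

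H2A counts were highest in undifferentiated cells. H2A genes summed to 8.73 and 9.98 CPM in hPSC, 2.05 and 2.08 CPM at 0.7 µM, 3.19 and 5.63 CPM at 3 µM, 4.72 and 8.62 CPM at 5 µM, and 3.59 and 6.30 CPM at 7.5 µM. Every day 11 library lay below both hPSC libraries, and both 0.7 µM libraries lay below all the others. HIST1H2AC was the H2A gene with most counts over the 10 libraries, at 6.47 and 7.18 CPM in hPSC, 0.585 and 1.27 CPM at 0.7 µM, 1.01 and 3.98 CPM at 3 µM, 0.915 and 5.199 CPM at 5 µM, and 0.802 and 4.36 CPM at 7.5 µM. At 5 µM replicate 1 HIST1H2AE had more counts (28 against 19). HIST1H2AC lay above 0.7 µM in both replicates at each higher concentration, by a log2 fold change of 1.46 ± 0.46, 1.52 ± 0.46 and 1.06 ± 0.46 (SE; edgeR adjusted p = 0.460, 0.201 and 0.157). HIST1H2AE was at 0.223 to 1.35 CPM at day 11, HIST3H2A at 0.089 to 0.818 CPM and HIST1H2AG at 0.097 to 0.468 CPM, with at most 44, 28 and 15 counts a library. None of the 4 H2A genes tested at day 11 passed in a comparison of doses.

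H3 and H4, the histones at the core of the nucleosome that take up the marks of active and silent chromatin, gave few counts. H3 genes summed to 0.469 to 1.54 CPM over all 10 libraries, or 16 to 45 counts a library, and none had enough counts to be tested. The H3 gene with most counts was HIST1H3H with 46 over the 10 libraries, followed by HIST1H3G with 37, HIST1H3PS1 with 31 and HIST1H3B with 30. H4 genes summed to 1.39 to 3.31 CPM. HIST1H4E was at 0.089 to 1.46 CPM at day 11 and HIST4H4 at 0.146 to 1.06 CPM. HIST1H4H was at 0.089 to 0.717 CPM and HIST1H4I at 0 to 0.436 CPM. None of the 5 H4 genes tested passed in a comparison of doses. Of the testis histones, HIST1H2AA, HIST1H2BA and HIST3H3 had no count in any library, and HIST1H1T was at 0 to 0.067 CPM.

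Over the 4 dose comparisons, few members passed the test, and those that did at 7.5 µM fell. After a filter on low counts, 22 of the 89 members were tested at day 11 among 18709 genes, and these held 94.5% of the members' counts. At 3 against 0.7 µM none of the 22 passed, where 0.0214% of all genes did (0.016% rose and 0.00535% fell). At an unadjusted p under 0.05 there were 5, all higher, where there were 1400 of all 18709 genes (697 higher and 703 lower). DESeq2 called 1, HIST1H2BK, where it called 196 of all 18709 genes. At 5 against 0.7 µM 1 of 22 passed, HIST1H2BK, where 1.13% of all genes passed (0.706% higher and 0.422% lower). At 7.5 against 0.7 µM 3 of 22 fell, HIST1H1D, HIST1H1E and HIST2H2BE, where 10.5% of all genes passed (5.64% higher and 4.87% lower). At 7.5 against 5 µM 3 of 22 fell, HIST1H1E, HIST1H2BK and HIST2H2BE, where 6.53% of all genes passed (3.22% higher and 3.3% lower). The 3 comparisons against 0.7 µM share its libraries, and the last shares the 5 µM libraries with the comparison of 5 against 0.7 µM.

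The direction of the tested members is better seen within the replicate numbers. At 3 µM 14 of 22 members were higher than at 0.7 µM in both replicates and 0 were lower in both, where 18.4% of all genes tested were higher in both and 41.5% lower in both. At 5 µM 16 of 22 were higher than at 0.7 µM in both replicates and 2 lower in both, where 23.4% and 32.2% of all genes were. At 7.5 against 5 µM 14 of 22 were lower in both and 0 higher in both, where 23.1% of all genes were lower in both and 48.4% higher in both. At 7.5 against 0.7 µM 10 of 22 were higher in both and 5 lower in both, where 41.7% and 21.5% of all genes were. The members' median log2 fold change was 0.89 at 3 µM, 0.87 at 5 µM and 0.38 at 7.5 µM against 0.7 µM, and −0.72 at 7.5 against 5 µM. The median of all genes tested was 0.03, 0.02, 0.07 and 0.06 in the same order. Scaling to total counts shifted the median of all genes by −0.18, −0.07, 0.17 and 0.25.

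**Figure D3:**
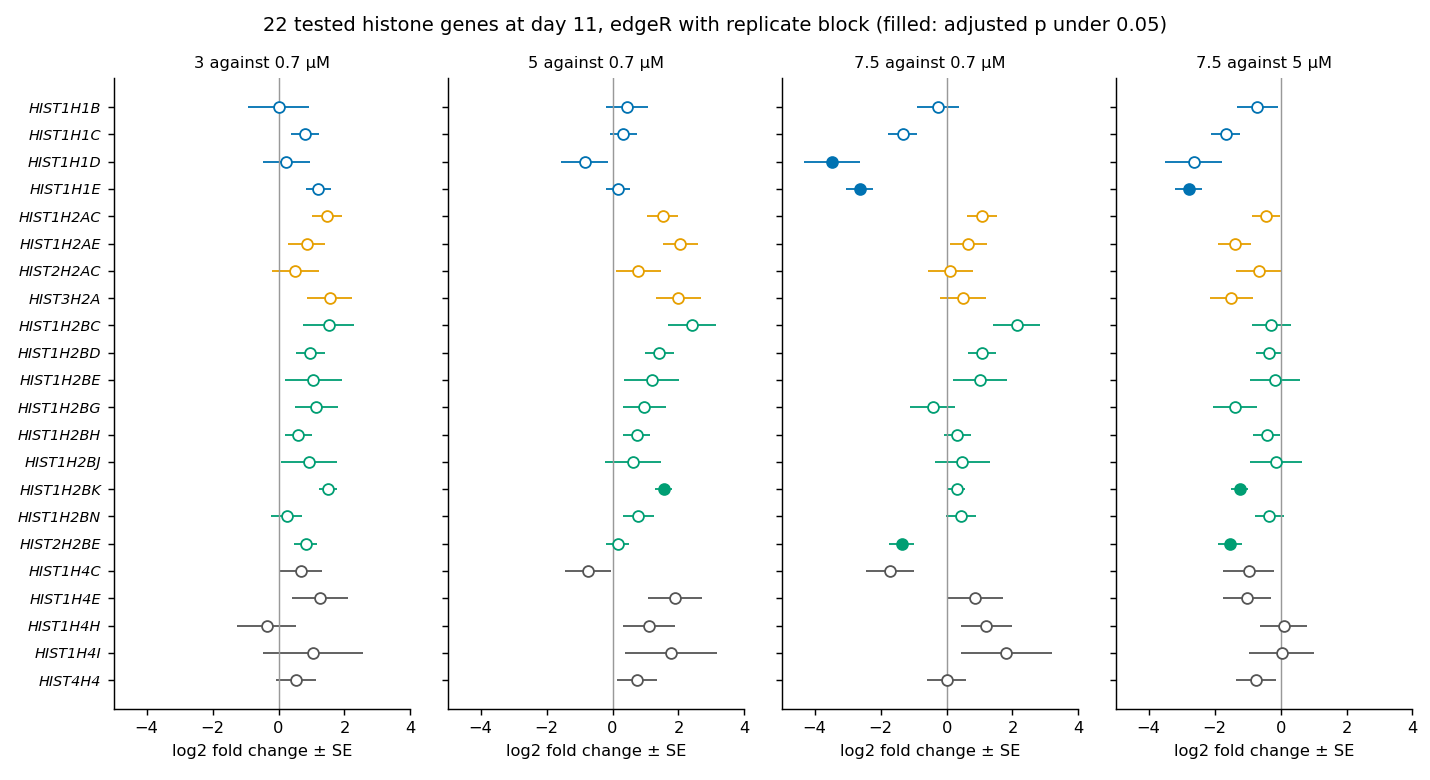
Log2 fold change with its standard error for the 22 histone genes tested at day 11, in 4 comparisons of CHIR concentrations; colours give the histone type and filled points have an edgeR adjusted p under 0.05. The 4 H1 genes lie left of 0 in both comparisons of 7.5 µM, and all 9 H2B genes lie right of 0 at 3 and 5 µM against 0.7 µM.

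Several histone genes differed between the replicate numbers. In the fit over the 8 day 11 libraries 8 of 22 members differed between replicate 2 and replicate 1, where 55.6% of all genes did (28.7% higher and 26.9% lower in replicate 2), so the members' share was below that of all genes. HIST1H2AC (log2 fold change 1.84 ± 0.32, SE; edgeR adjusted p = 0.00124), HIST4H4 (1.43 ± 0.44; adjusted p = 0.0185) and HIST2H2BE (0.94 ± 0.26; adjusted p = 0.0108) were higher in replicate 2. HIST1H2BH (−2.30 ± 0.30; adjusted p = 0.000504), HIST2H2AC (−1.90 ± 0.49; adjusted p = 0.00826), HIST1H1E (−1.87 ± 0.27; adjusted p = 0.000653), HIST1H1B (−1.71 ± 0.46; adjusted p = 0.00989) and HIST1H1C (−1.18 ± 0.31; adjusted p = 0.00866) were higher in replicate 1. Leaving out a library ended 4 of these calls: HIST1H1B without either at 5 µM, HIST1H1C and HIST2H2AC without either at 3 µM, and HIST4H4 without any at 0.7 or 3 µM (adjusted p from 0.0545 to 0.0825). Members of the same type went in both directions for H2A and H2B, and all 4 H1 genes tested lay higher in replicate 1. The share of reads that fit more than one place also differed between these replicates at 0.7, 3 and 5 µM. At 7.5 µM it was 17.4% and 15.1% in replicates 1 and 2. Within replicate 1 it thus differed between 7.5 µM and the lower concentrations, which the replicate block does not remove. Of 6 neuron markers listed, 4 were called, and these 4 were higher in replicate 2. TUBB3 (29.4 and 15.2 CPM in replicates 1 and 2) and ELAVL4 (3.80 and 3.49 CPM) were lower in replicate 2 at 7.5 µM. At the other concentrations both were higher in replicate 2. The part of read placement or of cell types in the histone differences was not tested. In the sample descriptions the day 11 libraries of a replicate number have a code in common, whose meaning is not given.

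Against undifferentiated cells, HIST1H2BK rose and HIST1H2AG fell. In the comparison of 0.7 µM with hPSC 2 of 24 tested members passed, where 11.4% of all 19672 genes did (5.31% higher and 6.12% lower). HIST1H2BK rose by a log2 fold change of 1.80 ± 0.32 (SE, n = 2 a group; edgeR adjusted p = 0.0122). HIST1H2AG was at 1.55 and 1.32 CPM in hPSC and at 0.097 and 0.201 CPM (2 and 9 counts) at 0.7 µM, and it fell by 3.00 ± 0.67 on the log2 scale (adjusted p = 0.0273). At 7.5 µM against hPSC 1 of 24 passed, where 10.1% of all genes did (4.35% higher and 5.7% lower). This was HIST1H2BK again, with a log2 fold change of 2.11 ± 0.32 (adjusted p = 0.00753). At 0.7 µM the groups did not overlap for 7 members that were higher and 8 that were lower than in hPSC, which was so of 23.2% and 36.6% of all genes. At 7.5 µM they did not overlap for 6 higher and 5 lower members, against 34.6% and 32.5% of all genes. The 2 comparisons share the hPSC libraries, and without either hPSC library neither kept a call among the members. HIST1H2AG also lost its call without either 0.7 µM library (adjusted p = 0.106 and 0.0610), and HIST1H2BK at 7.5 µM without 7.5 µM replicate 2 (adjusted p = 0.0597).

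These fits take the difference between day 11 replicates as noise, and with that difference removed by a replicate block within day 11 more members passed. At 0.7 µM 8 of 24 did, where 46.1% of all genes did (21% higher and 25% lower). HIST1H1E (log2 fold change 3.43 ± 0.42), HIST1H1D (3.18 ± 0.78), HIST1H2BK (1.80 ± 0.26) and HIST2H2BE (1.13 ± 0.35) were higher at 0.7 µM. HIST1H4I (−3.60 ± 1.11, 4 and 0 counts against 38 and 19), HIST1H2AG (−2.99 ± 0.60), HIST1H2AC (−2.90 ± 0.41) and HIST1H2BC (−2.47 ± 0.75) were lower, with edgeR adjusted p from 6.14e-05 to 0.0199 over the 8. HIST2H2BE overlapped between these groups, at 4.63 and 15.9 CPM against 3.99 and 5.27 CPM. In the fit without the block, leaving out 1 library moved its change between 0.18 and 1.94, that of HIST1H2BC between −2.97 and −1.49, and that of HIST1H4I between −7.78 and −2.11. At 7.5 µM against hPSC 4 of 24 passed in this blocked fit, where 34.8% of all genes did (16.6% higher and 18.1% lower). HIST1H2BK (2.11 ± 0.26) and HIST1H2BD (1.48 ± 0.42) were higher there, and HIST1H2AG (−1.98 ± 0.54) and HIST1H2AC (−1.82 ± 0.37) lower. Without the block, that of HIST1H2AC ran from −3.05 to −0.68 with 1 library left out. HIST1H1E, at 0.465 and 0.638 CPM in hPSC, was not among them (0.80 ± 0.44; adjusted p = 0.187).

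Many H2A and H2B genes stand head to head and share the DNA between their starts. In the 4 pairs with a member at 1 CPM per kilobase or more, which are given here, the partners had unequal levels. In GENCODE 29, 16 such H2A and H2B pairs start within 1000 bases of each other. Levels between genes are compared here per kilobase of the GENCODE 29 model, which need not be the model the reads were counted on. HIST1H2BK had a mean of 44.1 CPM per kilobase over the 10 libraries and its partner HIST1H2AH 0.321, with HIST1H2BK higher in 10 of 10 libraries. HIST2H2BE had 4.03 and its partner HIST2H2AC 0.638 CPM per kilobase, higher in 10 of 10 libraries. In the pair of HIST1H2AC and HIST1H2BC the H2A gene was higher in 10 of 10 libraries, at 1.91 against 0.440 CPM per kilobase. HIST1H2AE was likewise above HIST1H2BG in 10 of 10 libraries, at 1.26 against 0.253 CPM per kilobase. Among pairs with fewer counts, HIST1H2AI and HIST1H2BL had 0.132 and 0.128 CPM per kilobase, with the H2B gene higher in 5 of 10 libraries. No type was the higher in every pair.

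Promoters are shown for the H1 genes that were low together at 7.5 µM and for HIST2H2BE, which fell with them. RefSeq promoter windows (250 bases before to 50 after the start, GRCh38.p14) matched 57 of the 89 members uniquely by name. Letters were searched on both strands, and none of the 4 motifs contains another. AAACACA, known as an H1 promoter element, was in 6 of 6 H1 windows, 1 of 16 H2A, 2 of 11 H3 and none of the 11 H2B and 13 H4 windows, against 5.64% of all 35116 windows. ATTTGCAT, the octamer bound by OCT1, was in 11 of 16 H2A and 8 of 11 H2B windows and none of the others, against 1.77% of all windows. CCAAT was in 47 of 57 and TATAAA in 38 of 57, against 34.6% and 11.5%. Every H1, H2A, H2B and H3 window held CCAAT, but only 3 of 13 H4 windows (23.1%) did, below the share of all windows. Head-to-head partners can share part of a window, and a match is a description and not a site. The lines below hold bases 130 to 11 before the start, with those motifs in capitals.
HIST1H1E, chr6:26156199-26156318, + strand: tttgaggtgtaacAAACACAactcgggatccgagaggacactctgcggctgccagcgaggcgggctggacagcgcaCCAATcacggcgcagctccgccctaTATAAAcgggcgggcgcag
HIST1H1D, chr6:26234998-26235117, - strand: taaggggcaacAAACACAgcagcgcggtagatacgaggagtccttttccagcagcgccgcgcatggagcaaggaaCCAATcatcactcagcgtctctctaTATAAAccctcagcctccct
HIST1H1C, chr6:26056481-26056600, - strand: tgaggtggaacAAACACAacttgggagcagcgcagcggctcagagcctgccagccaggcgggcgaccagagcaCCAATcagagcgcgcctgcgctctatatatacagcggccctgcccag
HIST2H2BE, chr1:149886693-149886812, - strand: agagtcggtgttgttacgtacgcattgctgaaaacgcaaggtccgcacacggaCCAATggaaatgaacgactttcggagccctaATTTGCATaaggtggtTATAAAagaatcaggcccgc
AAACACA starts 117 to 119 bases and CCAAT 54 to 57 bases before the start in the 3 H1 windows printed. TATAAA starts 29 and 30 bases before the start in HIST1H1E and HIST1H1D, and the HIST1H1C window does not hold those letters.

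Among genes that act with the histones, some S-phase genes and chaperones rose at 7.5 µM. Of 16 S-phase genes, which copy DNA or drive its copying, 7 rose and 0 fell at 7.5 against 0.7 µM, where 10.5% of all genes passed, and 4 rose at 7.5 against 5 µM, where 6.53% did. CCNE2, the cyclin E2 that starts S phase, was at 2.83 and 3.06 CPM at 0.7 µM and 25.0 and 18.2 CPM at 7.5 µM (log2 fold change 2.71 ± 0.35, SE; edgeR adjusted p = 0.00177). PCNA, the sliding clamp of DNA polymerase, was at 126 and 64.3 CPM at 0.7 µM and 322 and 161 CPM at 7.5 µM (1.17 ± 0.24; adjusted p = 0.0151). The proliferation marker MKI67 rose likewise, from 72.5 and 110 CPM to 276 and 390 CPM (1.71 ± 0.24; adjusted p = 0.00258). The 16 genes summed to 3307 and 2009 CPM at 7.5 µM, above 865 to 1759 CPM in the other day 11 libraries. The S-phase sum was thus highest where the histone sum was lowest among the day 11 cultures. At 7.5 µM that histone sum was 0.770 and 0.970 times the one at 0.7 µM in replicates 1 and 2. The types differed, and only the H1 sum was lower in both replicates. The H2A sum (1.76 and 3.03 times) and the H3 sum (1.22 and 1.59 times) were higher in both. H2B (1.13 and 0.973 times) and H4 (0.780 and 2.14 times) went both ways. In bulk cultures more cells in S phase and more RNA per cell cannot be told apart.

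SLBP, which binds the stem-loop, was at 75.5 to 121 CPM at day 11 and passed in no comparison of doses (edgeR adjusted p from 0.733 to 0.993). NPAT was at 11.3 and 45.4 CPM at 0.7 µM and 25.1 and 40.9 CPM at 7.5 µM, and passed in no comparison of doses either. Of the 12 histone mRNA processing genes only CASP8AP2, a partner of NPAT, passed at 7.5 against 0.7 µM, and it rose (1.30 ± 0.34; adjusted p = 0.0370). Of 12 histone chaperones and assembly factors 4 rose and 0 fell in that comparison: ASF1B (1.57 ± 0.33; adjusted p = 0.0168), CHAF1B (1.15 ± 0.25; adjusted p = 0.0181), CHAF1A (1.09 ± 0.24; adjusted p = 0.0196) and HAT1. Of 11 replacement variants, histones that can be placed on DNA outside its replication, 3 rose and 1 fell. CENPA (1.78 ± 0.37; adjusted p = 0.0153), H2AFY (1.13 ± 0.23; adjusted p = 0.0148) and H2AFZ (1.05 ± 0.25; adjusted p = 0.0249) rose, and the linker variant H1F0 (−1.05 ± 0.25; adjusted p = 0.0265) fell. H1F0 was at 608 and 873 CPM at 0.7 µM and 381 and 412 CPM at 7.5 µM, which did not overlap, but scaled to total counts no variant fell by the test. H3F3B, a gene for H3.3, was at 1175 and 944 CPM at 0.7 µM and 1044 and 587 CPM at 7.5 µM (−0.62 ± 0.28; adjusted p = 0.176).

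Other RNAs that carry no poly(A) tail were also lowest at 7.5 µM among the day 11 cultures. Of 14 such RNAs 11 were tested, and all 11 had a negative log2 fold change at 7.5 against 0.7 µM (2 fell by the test, 1 when scaled to total counts) and against 5 µM (3 fell by the test). Their sum was 127 and 85.9 CPM at 0.7 µM, 123 and 136 CPM at 3 µM, 91.4 and 159 CPM at 5 µM, 81.5 and 31.6 CPM at 7.5 µM, and 14.2 and 19.0 CPM in hPSC. RN7SK, the RNA that holds back the elongation factor P-TEFb, was at 21.8 and 11.9 CPM at 0.7 µM, 24.7 and 19.5 CPM at 3 µM, 22.2 and 31.6 CPM at 5 µM, 5.76 and 4.08 CPM at 7.5 µM, and 2.57 and 1.995 CPM in hPSC. Both 7.5 µM libraries lay below all other day 11 libraries, as they did for HIST1H1E, and both hPSC libraries lay lower still. RN7SK fell at 7.5 µM by a log2 fold change of −1.91 ± 0.32 (SE; edgeR adjusted p = 0.00634) against 0.7 µM and −2.74 ± 0.33 (adjusted p = 0.00993) against 5 µM. RNY1 fell in the former comparison, and RMRP and RPPH1 in the latter. The part of these RNAs' shift in the histone differences was not tested.

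**Figure D4:**
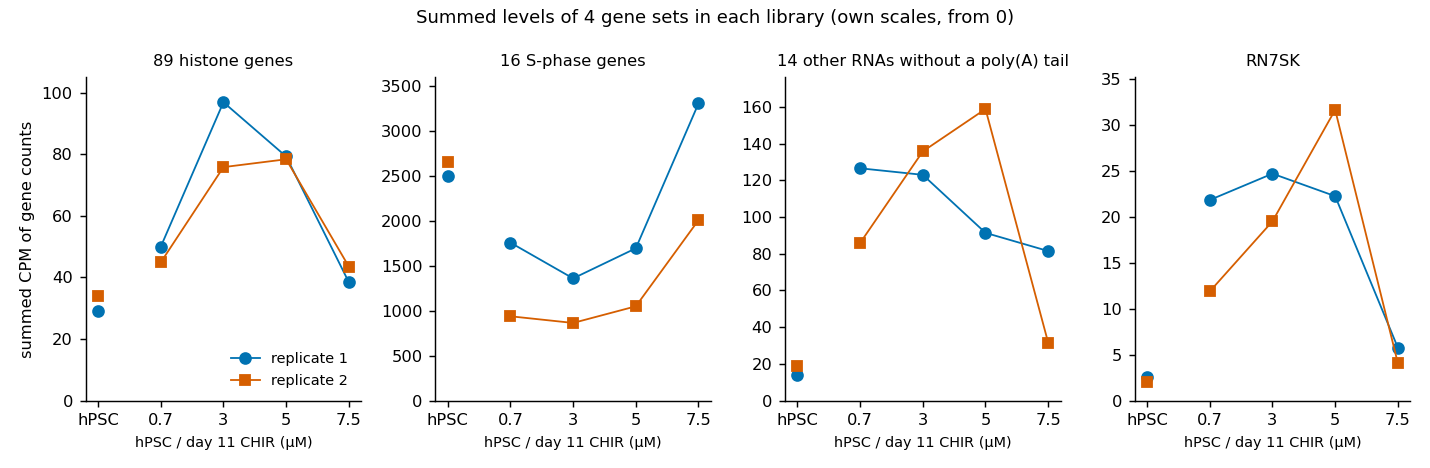
Summed CPM of the 89 histone genes, of 16 S-phase genes, of 14 other RNAs without a poly(A) tail, and of RN7SK alone, in hPSC and by CHIR concentration (µM, evenly spaced) at day 11, with circles for replicate 1 and squares for replicate 2. At 7.5 µM the S-phase sum is the highest of day 11 in each replicate, while the histone sum and RN7SK are the lowest.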

How the data were processed

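The starting material was total RNA, and whether poly(A) RNA was selected from it before sequencing is not given. The values used are the read counts per gene that the authors deposited for 2 hPSC and 8 day 11 libraries. Per the submitters' processing notes the genome was hg19 and the tools included HTSeq 0.5.3, featureCounts 1.4.2, STAR 2.4.2a and DESeq2 1.12.4. Library kit, strand and counting settings are not stated there. The 5 summary entries of each table (37.4% to 44.3% of all counts) entered neither depth nor test. Levels are CPM of gene counts, and depth was 20524827 to 44758969 gene counts a library.

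Members, gene lists and comparisons were chosen with earlier results of these data known. Tests were run in edgeR 4.0.16 under R 4.3.3: filterByExpr, TMM, quasi-likelihood F-tests with robust fitting, and Benjamini-Hochberg adjustment over all genes tested, with a threshold of 0.05. The code was tested on simulated data. Dose comparisons used the 8 day 11 libraries with a replicate block, and those with hPSC used 10 libraries without one. Deviations of same-numbered libraries correlated at 0.64 to 0.86 between day 11 groups, which also share codes in their descriptions, and at −0.18 to −0.11 between hPSC and day 11, so the numbers pair only day 11 libraries. Named members are the 4 of highest mean CPM of each type, up to 6 higher and 6 lower called in each comparison, and those listed as polyadenylated or testis-specific. Other lists are given by counts, with up to 3 called genes each besides SLBP, NPAT, PCNA, H2AFZ, H3F3B, H1F0 and MKI67. HIST1H2BN, HIST1H3PS1, HAT1, the marker genes and the head-to-head partners fall outside this rule and were named after their values were seen. Gene models are GENCODE 29 and promoters RefSeq (GRCh38.p14), joined by name. DESeq2 1.42.0, other scalings, other filters and left-out libraries were tried as alternatives.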

Additional observations from a re-analysis of the deposited data

Results flagged for a closer look

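The count tables of day 16 and day 30 of the 7.5 µM protocol enter no comparison above, and histone counts are present in them. The 89 members, all found by gene identifier, summed to 33.6 CPM in day 16 replicate 1 and 13.9 CPM in replicate 2, and to 14.7 and 13.2 CPM in day 30 replicates 1 and 2, above the 0.473 to 0.555 CPM that a count of 0 allows. HIST2H2BE accounts for most of the gap between the day 16 libraries, with 91 counts in replicate 1 and 1 count in replicate 2. The table of each library holds 5.41 to 6.34 × 1000000 gene counts, and their tables list other gene entries, so no difference from day 11 was tested.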

How the results depend on the processing

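The day 11 calls rest on the replicate block, for the members as for all genes. With no replicate block 0 members passed at 5 against 0.7 µM, 0 at 7.5 against 0.7 µM and 0 at 7.5 against 5 µM. Of all 18709 genes 0 passed in each of these comparisons too. With hPSC, the blocks tried were over all 10 libraries, within day 11, and with hPSC numbers crossed (chosen after seeing the data). In that order the members passing rose from 2 to 6, 8 and 6 at 0.7 µM, and from 1 to 2, 4 and 3 at 7.5 µM. The number of all genes passing rose too, from 2248 to 5282, 9064 and 6051 of 19672 at 0.7 µM. At 7.5 µM it rose from 1978 to 3987, 6838 and 4412. Fitting only the 2 doses compared gave 2 members at 3 against 0.7 µM and 3 at 5 against 0.7 µM. It gave 2 at 7.5 against 0.7 µM (HIST2H2BE lost its call) and 5 at 7.5 against 5 µM. Among all genes these fits called 700 of 17263, 953 of 17396, 1032 of 18028 and 2463 of 17969, in the same order. The main fit called 4, 211, 1967 and 1221 of 18709. Without a filter on low counts 1 passed at 3 against 0.7 µM, 2 at 5 against 0.7 µM and 5 at 7.5 against 5 µM. Of all 31799 genes 320, 783 and 3136 passed there. DESeq2 called 1 at 3 against 0.7 µM, 5 at 7.5 against 5 µM, 5 at 0.7 µM against hPSC and 3 at 7.5 µM against hPSC. Among all genes it called 196 and 2777 of 18709, and 4400 and 3537 of 19672, in the same order. Scaling to total counts left 1 at 7.5 against 5 µM, where 1126 of all 18709 genes passed. Leaving out 1 library gave 0 to 0 at 5 against 0.7 µM, 1 to 3 at 7.5 against 0.7 µM, 0 to 5 at 7.5 against 5 µM, and 0 to 1 in each comparison with hPSC. The cause of these shifts was not tested. The mean log2 ratio of the summed CPM to 0.7 µM at 3 µM went from 0.86 to 1.05 for all members and from 0.89 to 1.08 for H2B when TMM-scaled, and at 7.5 µM that of H2B turned from 0.07 to −0.10. Without the highest member of each type the ratios for all members were 0.66, 0.37 and −0.49 at 3, 5 and 7.5 µM, those for H2B 0.54, 0.40 and −0.27, and those for H1 −0.13 at 5 µM, from 0.06, and −2.29 at 7.5 µM, from −1.68. No called member changed direction under the alternative runs, leaving aside the one with hPSC numbers crossed, which was not checked for this. H3 and most H4 and H2A genes had too few counts to test, and the reason for their low counts was not tested.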
